A study of Mus musculus with 10 samples.

Results

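Transcripts of 33 genes that bring secretory proteins into the endoplasmic reticulum (ER) and attach N-glycans to them were compared between pancreatic islets at ZT8 and ZT20. The members are a list of gene names, chosen by known function, that cover the signal recognition particle and its receptor, the Sec61 channel and its partners, the TRAP complex, the signal peptidase, the oligosaccharyltransferase and a pair of p24 cargo receptors. Each gene was read from 1 array row, and all 33 of 33 genes had a row among the 32814 rows that name at least 1 gene. For 4 genes, Sec61g, Srp54a, Tmed2 and Tmed10, the row also names a near-identical copy or pseudogene, so that their signals can hold RNA of the copy.

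The islets came from male C57BL/6 mice (C57Bl/6J in the study's methods), an inbred strain, aged 10 weeks by the labels, with no transgene or treatment in either group. The methods also name an acclimatization of some weeks before the mice were killed, so that the age at islet isolation is not settled. All animals were killed at the same clock time by the methods, ZT8 mice on a normal light cycle and ZT20 mice on an inverted one, and islets were handpicked after collagenase digestion and cultured for about a day. RNA was hybridised with 1 Affymetrix array per sample, 5 at ZT8 and 5 at ZT20, which the titles call biological replicates, while the titles write CT8 and CT20 for ZT8 and ZT20. Time of day and the inverted housing cannot be told apart here, and no source used here gives batches of arrays or cultures. Values are log2 signals as the authors deposited them, and every difference below is ZT20 minus ZT8 on this log2 scale, with p-values from limma, Benjamini-Hochberg adjusted across the 32814 rows. In bulk RNA of islets, fewer cells of a type and less RNA per cell cannot be told apart.

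Insulin is made as preproinsulin, whose signal peptide is recognised at the ribosome by the signal recognition particle (SRP) and handed to the SRP receptor on the ER membrane. The chain then enters the ER lumen through the Sec61 channel, helped by the TRAP complex, and the signal peptidase cuts off the signal peptide to leave proinsulin. The oligosaccharyltransferase adds N-glycans to other proteins that use the same door, such as receptors and granule membrane proteins, and p24 proteins sort cargo between the ER and the Golgi. In beta cells, which make insulin as their main product, these steps carry a heavy load, and the TRAP subunit encoded by Ssr1 is known to be needed for efficient insulin biosynthesis. The comparison asks whether transcripts of this machinery differed between the pair of time points at which the study measured islet insulin content.

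None of the 33 genes passed the test: 0 of 33 lay at an adjusted p under 0.05 from limma, against 0.744% of all tested rows, and the smallest adjusted p was 0.135. By the methods' t-test, which allows unequal variances, 0 of 33 passed as well. At an unadjusted p under 0.05 lay 4 of 33 genes by limma on the deposited values (12.1%, against 18.5% of all tested rows). The count was 6 by the methods' t-test, 9 by limma with arrays centred and 5 by limma after quantile normalization. For these alternatives neither the share of all tested rows nor the directions were counted. On the deposited values all 4 genes, Sec62, Spcs3, Srp54a and Srp72, had a lower mean at ZT20. The share of tested rows that were lower at this threshold was 8.37%, or 21.5% among the 6562 brightest rows. After quantile normalization the differences of these 4 lay between -0.07 and -0.02 (limma adjusted p from 0.456 to 0.854), and 24 of 33 genes had a higher mean at ZT20. Leaving out ZT8 replicate 4 brought the limma count on deposited values from 4 to 2.

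The differences were small and closely bounded. They ran from -0.17 for Srp54a to 0.08 for Stt3b, and in 27 of 33 genes the difference was under 0.10 in size. The 95% confidence interval included 0 in 29 genes, lay below 0 in 4 and above 0 in none. The highest upper bound of any of these intervals was 0.21, for Stt3b, a fold of 1.16 for ZT20 over ZT8. The lowest bound was -0.28, for Srp54a, a fold of 1.22 for ZT8 over ZT20. These bounds hold for each gene on its own and not for the 33 at once, and they take the deposited normalization as given.

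**Figure D1:**
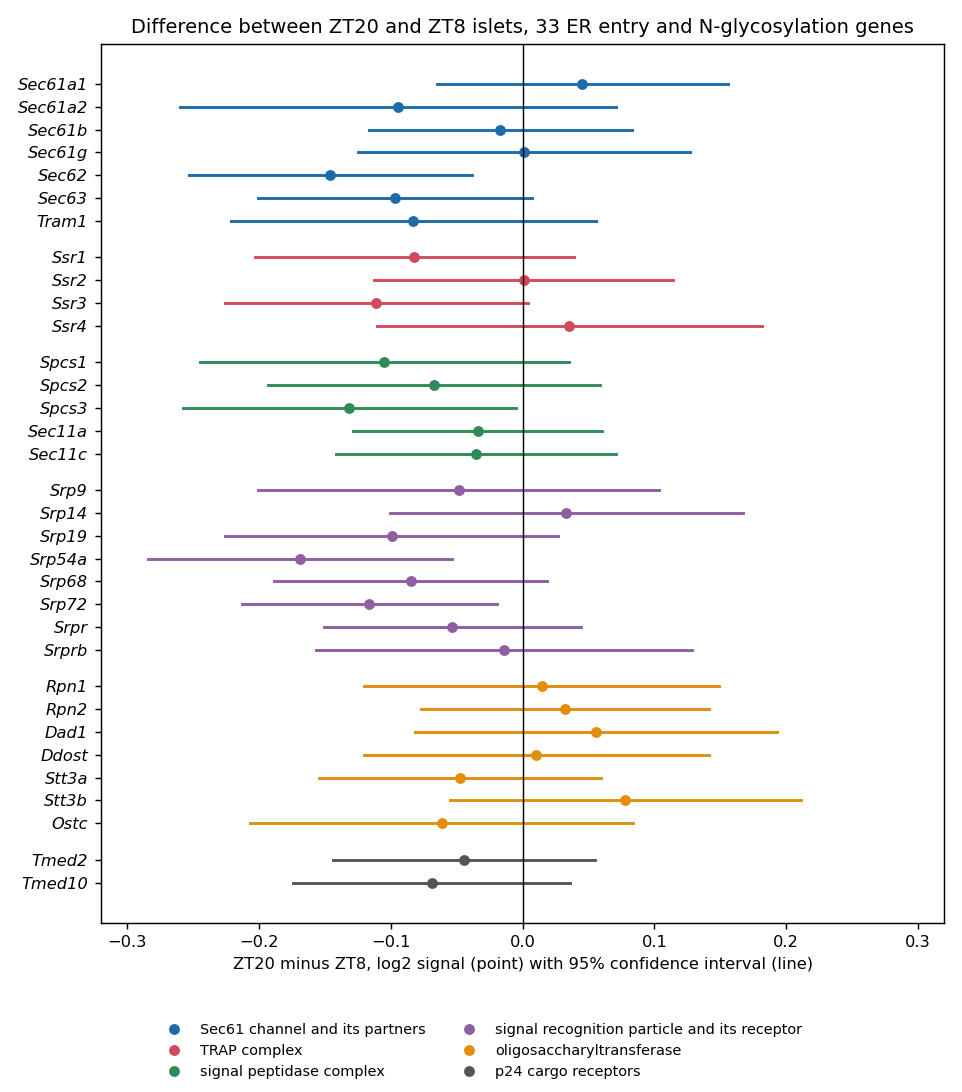
Difference of ZT20 minus ZT8 in log2 signal (x axis) for each of the 33 genes (y axis), coloured by role, with points for the estimate and lines for the 95% confidence interval from limma, 5 arrays per group. Every estimate lies between -0.17 and 0.08, and 29 of the 33 lines cross 0.

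In direction, 10 of 33 genes had a higher mean at ZT20 and 23 a lower one, a count that turned to 24 higher after quantile normalization and to 2 higher with each array centred on its median. It became 5 without ZT8 replicate 1 and 5 without ZT20 replicate 3. The median difference over the members was -0.05 as deposited, 0.03 after quantile normalization and -0.10 after centring. The corresponding medians over all tested rows were 0.03, 0.0097 and -0.02. The direction went with how bright a row was. All 33 genes were brighter than the median row, whose signal was 6.26, and 29 lay in the 6562 brightest rows. Among those brightest rows the median difference was -0.05 and 29.0% of rows had a higher mean at ZT20, beside 30.3% of the members and 61.9% of all tested rows. After quantile normalization the shares were 54.8% of these bright rows and 72.7% of the members, and after centring 13.4% and 6.06%.

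**Figure D2:**
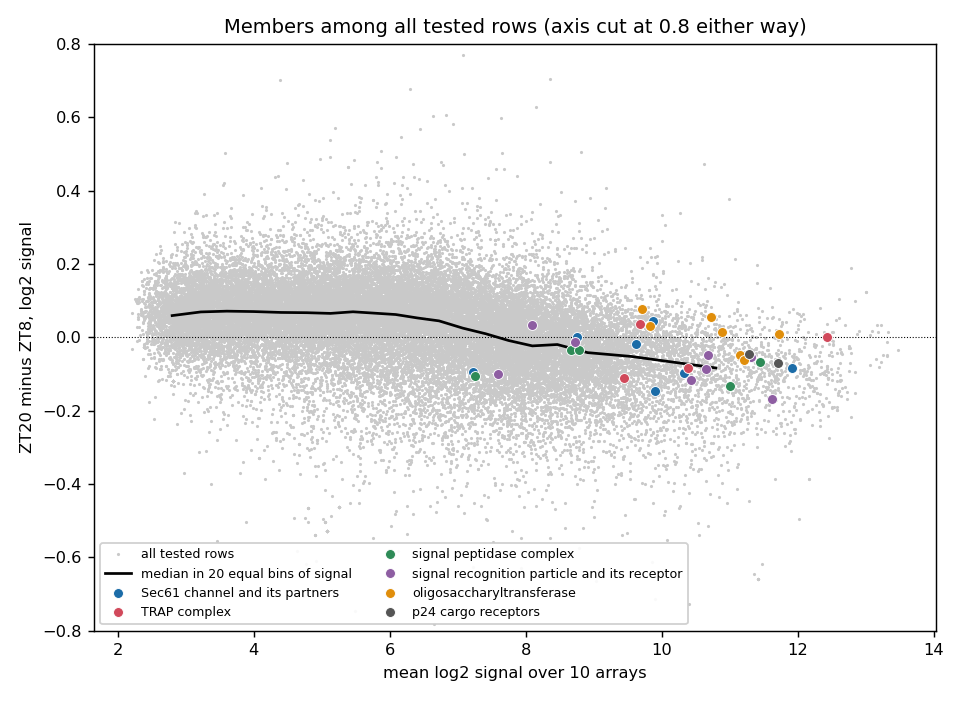
Mean log2 signal over the 10 arrays (x axis) against ZT20 minus ZT8 in log2 signal (y axis) for all tested rows in grey, with the median of 20 equal bins as a black line and the 33 genes coloured by role. The black line falls below 0 among bright rows, where the 33 genes lie.

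Targeting to the ER membrane begins with SRP, and of its genes and those of its receptor 7 of 8 had a lower mean at ZT20, with a median difference of -0.07 (0.01 after quantile normalization). Srp54a encodes the GTPase subunit that binds the signal peptide. Its signals were 11.62, 11.71, 11.76, 11.70 and 11.77 on the ZT8 arrays, replicates 1 to 5, and 11.60, 11.41, 11.64, 11.52 and 11.55 on the ZT20 arrays. All ZT20 arrays but replicate 3 lay below every ZT8 array, and that one stood just above ZT8 replicate 1. The difference was -0.17 (SE 0.053, limma adjusted p = 0.135, and p = 0.0159 by an exact permutation of the arrays for this gene, two-sided), and it shrank to -0.05 after quantile normalization. This row names both Srp54a and Srp54b, a neighbouring copy. A second row that names both had a difference of -0.16 (adjusted p = 0.142), and the row of the third copy, Srp54c, one of -0.19 (adjusted p = 0.0925). After quantile normalization these were -0.06 and -0.07. Since the copies share sequence, the rows cannot be read as separate measurements.

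Srp72 encodes the subunit that pairs with SRP68 on the SRP RNA. At ZT8 its signals were 10.46, 10.48, 10.51, 10.54 and 10.48, and at ZT20 they were 10.39, 10.29, 10.45, 10.37 and 10.39. The ZT20 arrays all lay below the ZT8 arrays, the nearest pair being 10.45 and 10.46. The difference was -0.12 (SE 0.045, limma adjusted p = 0.204, exact permutation p = 0.00794, the smallest that 5 against 5 allow), and -0.02 after quantile normalization. Srp72 and Sec63 were the only genes of the list whose groups did not overlap, 2 of 33 or 6.06%, against 5.92% of all tested rows in either direction and 11.6% of the 6562 brightest rows. Srp68, its partner, had a difference of -0.08 (adjusted p = 0.353). Srp19, which helps to assemble the particle, had one of -0.10 (adjusted p = 0.37). Srp9 and Srp14, the pair that slows elongation during targeting, were at -0.05 and 0.03 (adjusted p = 0.729 and 0.795). The receptor subunits Srpr and Srprb had differences of -0.05 and -0.01 (adjusted p = 0.529 and 0.925).

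None of the genes of the Sec61 channel itself passed the test. Sec61a1, which encodes the pore-forming subunit, had signals of 9.75, 9.80, 9.85, 9.93 and 9.89 at ZT8 and of 9.83, 9.88, 9.99, 9.89 and 9.85 at ZT20. The groups overlapped almost completely, with a difference of 0.05 (95% confidence interval -0.07 to 0.16, limma adjusted p = 0.645), and -0.0025 with arrays centred. The small subunits Sec61b and Sec61g differed by -0.02 (interval -0.12 to 0.08) and 0.0013 (interval -0.12 to 0.13). Sec61a2, a second gene for the pore subunit, had a difference of -0.09 with the widest spread of the list (SE 0.076, adjusted p = 0.508), and -0.11 after quantile normalization. Tram1, a membrane protein beside the channel that touches entering chains, had one of -0.08 (adjusted p = 0.489).

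The members that serve short precursors and post-translational entry were Sec62 and Sec63, and neither passed the test. Sec62, known to help small presecretory proteins into the ER of mammalian cells, had signals of 9.86, 10.02, 10.04, 9.97 and 10.00 at ZT8 and of 9.82, 9.83, 9.88, 9.75 and 9.88 at ZT20. Every ZT20 array lay below 4 of the 5 ZT8 arrays, and the overlap came from ZT8 replicate 1. The difference was -0.15 (SE 0.050, limma adjusted p = 0.16, exact permutation p = 0.0238), and -0.07 after quantile normalization. Sec63 encodes the J-domain protein that recruits the chaperone BiP to the channel. Its signals were 10.35, 10.35, 10.39, 10.39 and 10.35 at ZT8 and 10.31, 10.14, 10.29, 10.28 and 10.33 at ZT20. The groups did not overlap, with ZT20 replicate 2 far below the rest of its group. The difference was -0.10 (SE 0.048, limma adjusted p = 0.301, exact permutation p = 0.00794), and it was -0.06 without ZT20 replicate 2 and -0.0092 after quantile normalization.

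In the TRAP complex, which binds beside the Sec61 channel and assists weak signal peptides, 2 of 4 genes had a higher and 2 a lower mean at ZT20, with 3 higher after quantile normalization and 0 after centring. Ssr3 encodes the gamma subunit. Its signals were 9.52, 9.47, 9.48, 9.57 and 9.44 at ZT8 and 9.35, 9.28, 9.53, 9.35 and 9.42 at ZT20, with ZT20 replicate 3 inside the ZT8 range and the other ZT20 arrays below it. The difference was -0.11 (SE 0.053, limma adjusted p = 0.284, exact permutation p = 0.0556), and -0.04 after quantile normalization. Ssr1, the alpha subunit linked to insulin biosynthesis, had signals of 10.30, 10.45, 10.53, 10.48 and 10.38 at ZT8 and of 10.41, 10.30, 10.43, 10.28 and 10.31 at ZT20, and these ranges overlapped. Its ZT20 minus ZT8 value was -0.08 (interval from -0.20 to 0.04, limma adjusted p = 0.434), and 0.02 after quantile normalization. Ssr2, the beta subunit, differed by 0.00086 and Ssr4, the delta subunit, by 0.04 (adjusted p = 0.994 and 0.798).

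All 5 genes of the signal peptidase complex had a lower mean at ZT20, with differences from -0.13 to -0.03, but 3 of 5 had a higher one after quantile normalization. Spcs3, encoding an accessory subunit, had signals of 10.91, 11.15, 11.13, 11.11 and 11.01 at ZT8 and of 11.01, 10.93, 10.98, 10.82 and 10.90 at ZT20. ZT8 replicate 1 lay among the ZT20 arrays and the other 4 above them. The difference was -0.13 (SE 0.058, limma adjusted p = 0.257, exact permutation p = 0.0476), and -0.04 after quantile normalization. The catalytic subunits Sec11a and Sec11c, which cut the signal peptide, differed by -0.03 and -0.04 (95% confidence intervals -0.13 to 0.06 and -0.14 to 0.07). Spcs1 and Spcs2, the remaining accessory subunits, were at -0.10 and -0.07 (adjusted p = 0.391 and 0.538).

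**Figure D3:**
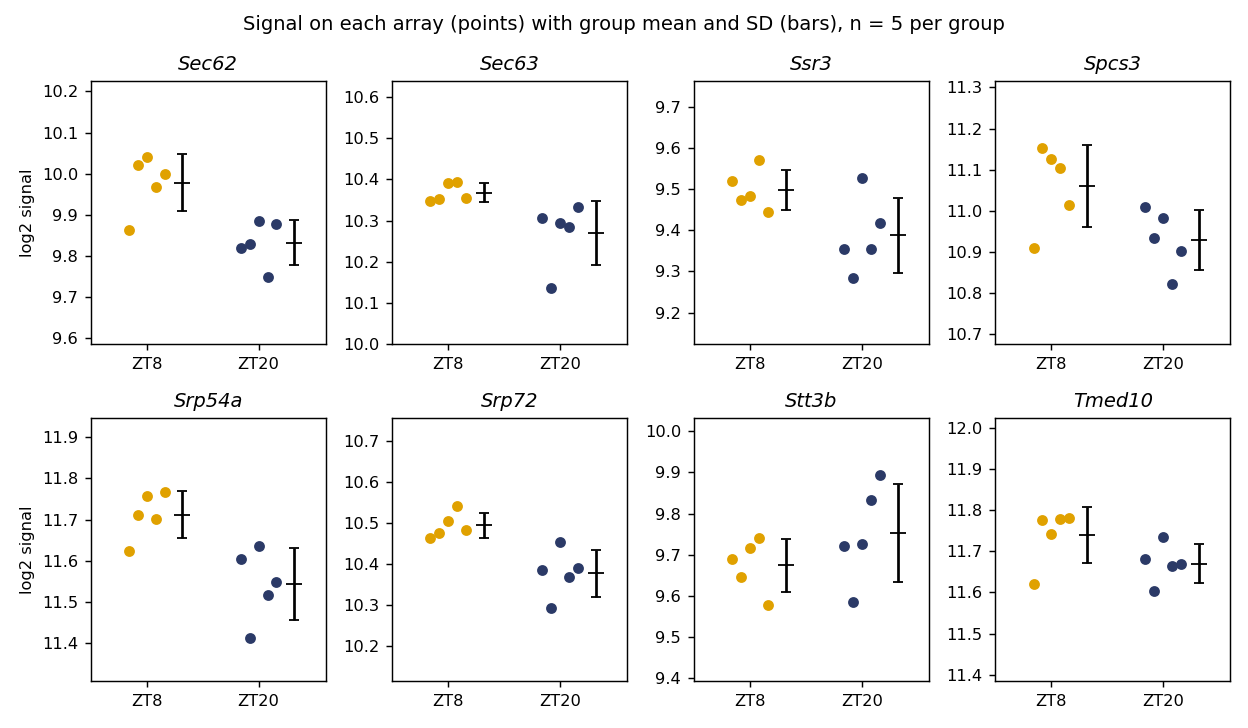
Log2 signal (y axis) on each ZT8 and ZT20 array (x axis, points) for the 8 members with the lowest unadjusted p-values, groups that do not overlap or the largest difference of their role, with bars for the group mean and SD, n = 5 arrays per group. The vertical axis of every panel spans the same range in log2 units and starts above 0, and only Sec63 and Srp72 have groups that do not overlap.

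The oligosaccharyltransferase was the role with the highest median difference, 0.01, and it had the highest median of the 6 roles also after centring (-0.03) and after quantile normalization (0.11). Of its 7 genes 5 had a higher mean at ZT20 as deposited, 2 after centring and 7 after quantile normalization. Stt3b encodes the catalytic subunit that can add N-glycans after synthesis of the chain. Its signals were 9.69, 9.65, 9.72, 9.74 and 9.58 at ZT8 and 9.72, 9.59, 9.73, 9.83 and 9.89 at ZT20, so that only ZT20 replicates 4 and 5 exceeded the ZT8 range. The difference was 0.08 (SE 0.061, limma adjusted p = 0.497, exact permutation p = 0.246). It was 0.04 without ZT20 replicate 5, 0.12 without ZT20 replicate 2, 0.03 after centring and 0.15 after quantile normalization. Stt3a, the catalytic subunit that works on the entering chain at the channel, was at -0.05 (interval from -0.15 to 0.06), and the intervals of Stt3a and Stt3b overlapped. Whether Stt3a and Stt3b differed from each other in their change was not tested.

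The shared subunits moved little as well. Rpn1 and Rpn2, the ribophorins, had differences of 0.01 and 0.03 (adjusted p = 0.916 and 0.752). Ddost and Dad1, further core subunits, were at 0.01 and 0.06 (adjusted p = 0.938 and 0.65). Ostc, which belongs to the enzyme form that holds STT3A, had a difference of -0.06 (adjusted p = 0.633). For Ddost, ZT8 replicate 1 was the lowest ZT8 array at 11.54 and ZT20 replicate 3 the highest ZT20 array at 11.86, and the other arrays lay between 11.68 and 11.81.

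Tmed10 and Tmed2 encode p24 proteins, which cycle between the ER and the Golgi and load cargo into transport vesicles. Tmed10 had signals of 11.62, 11.78, 11.74, 11.78 and 11.78 at ZT8 and of 11.68, 11.60, 11.73, 11.66 and 11.67 at ZT20, and 4 of 5 ZT8 arrays lay above all ZT20 arrays. The difference was -0.07 (SE 0.048, limma adjusted p = 0.447), and it turned to 0.03 after quantile normalization. Tmed2 had a difference of -0.04 (adjusted p = 0.614).

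For Ins2, an insulin gene that encodes the substrate, ZT8 arrays averaged 13.18 ± 0.050 and ZT20 arrays 13.19 ± 0.041 in log2 signal (SD, n = 5 each). These values lay near the upper end of the arrays' range, where the highest values lay between 13.63 and 13.71. Ins1, the other insulin gene that the study measured, was not read here.

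Single arrays stood apart over much of the list. Of the ZT8 arrays, replicate 1 gave the lowest value in 27 of 33 genes, while it was the lowest in 51.9% of the 6562 brightest rows. Of the ZT20 arrays, replicate 3 gave the highest value in 27 of 33 genes, while it was the highest in 40.6% of those rows. The mean signal over the 33 genes ran from 10.05 to 10.20 at ZT8 and from 10.05 to 10.19 at ZT20, with group means of 10.14 ± 0.061 and 10.10 ± 0.057 (SD, n = 5). The spread within a group was thus larger than the distance between the group means.

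**Figure D4:**
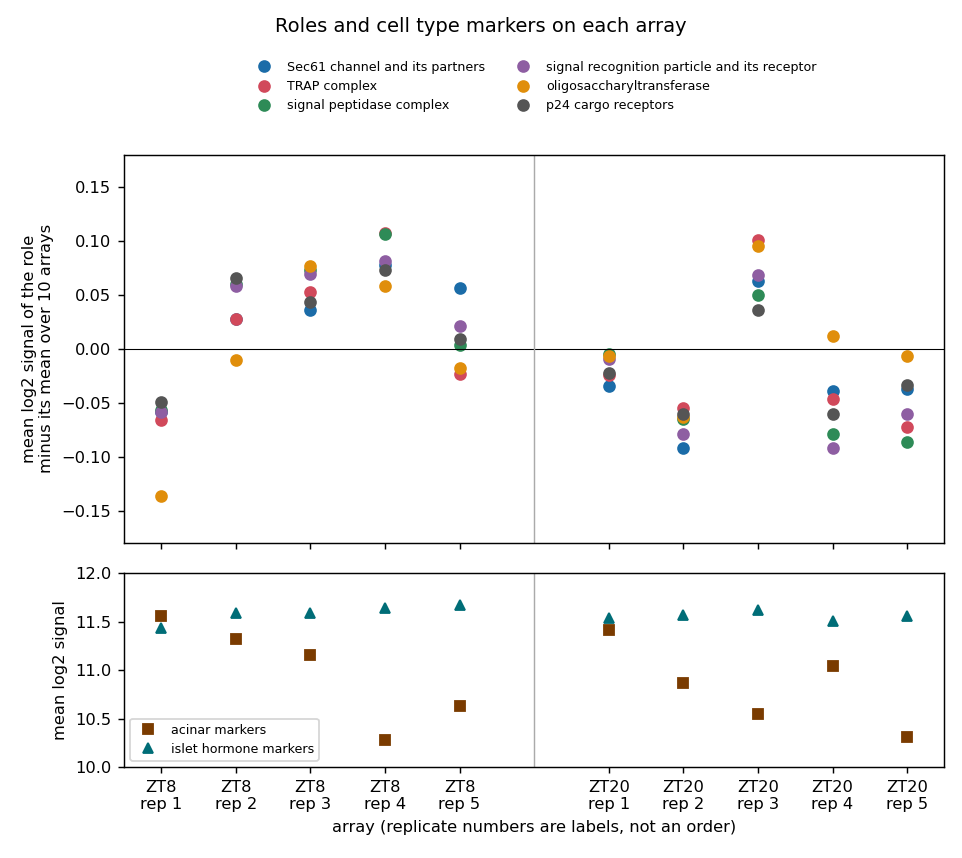
Upper panel: mean log2 signal of the genes of each role on each array (x axis), minus the role's mean over the 10 arrays. Lower panel: mean log2 signal of 14 acinar and 9 islet hormone cell markers on the same arrays. ZT8 replicate 1 is the lowest ZT8 array and ZT20 replicate 3 the highest ZT20 array in every role, and acinar markers span over 1 log2 unit within each group.

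Markers of the tissue were checked on the same arrays. All 9 of 9 markers of islet hormone cells were measured, with a mean between 11.44 and 11.68 on every array. Signal of acinar cells, the enzyme-secreting cells of the pancreas that are rich in ER, was also high. The mean of 14 of 16 acinar markers measured ran from 10.28 to 11.55 at ZT8 and from 10.31 to 11.42 at ZT20, with none of the 14 at an unadjusted p under 0.05 and 2 of 14 higher at ZT20. At ZT8 the array with the highest acinar mean, replicate 1, had the lowest mean of the members, and the one with the lowest, replicate 4, had their highest. At ZT20 this was not so, since replicate 1, with the highest acinar mean, had the second highest mean of the members and replicate 5, with the lowest, had a mean of 10.07. The mean of 23 background control rows was 4.14 at ZT8 and 4.27 at ZT20, higher at ZT20 by 0.13. Markers of other cells had higher means at ZT20 in 6 of 6 stellate cell and fibroblast genes (median difference 0.17), 5 of 5 leukocyte genes (0.14) and 5 of 6 endothelial genes (0.11). Of 7 duct markers 5 were measured, and 3 of 5 had a higher mean at ZT20 (median difference 0.0044), or 0 after centring. The share of all tested rows with a higher mean at ZT20 was 61.9%. None of these markers passed the test. At an unadjusted p under 0.05 by limma lay 2 stellate cell and fibroblast, 1 leukocyte, 1 endothelial and 0 duct genes. All of them were higher at ZT20, against 10.2% of all tested rows. The part of these cells, of acinar RNA and of background in the members' values was not tested.

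Related steps that the list does not cover were read from 6 further lists with 95 measured genes. Among these, 1 of 95 passed with values as deposited, against 0.744% of all tested rows and 135 of the 6562 brightest rows. The count was 3 after centring and 0 after quantile normalization, for which the share of all tested rows that passed was not counted. At an unadjusted p under 0.05 lay 10 of 95 genes lower and 2 of 95 higher at ZT20, against 8.37% and 10.2% of all tested rows. Of the 6562 brightest rows, 1411 (21.5%) were lower and 118 higher at this threshold. The mean signals of the related genes ran from 3.33 to 11.65, and the brightest rows began at 8.27. The gene that passed was Ktn1, which encodes kinectin, a protein of the ER membrane that binds the motor kinesin. Its signals were 8.58, 8.60, 8.59, 8.54 and 8.72 at ZT8 and 8.38, 8.23, 8.37, 8.35 and 8.41 at ZT20. No ZT20 array reached the lowest ZT8 array. Ktn1 fell at ZT20, with a difference of -0.26 (SE 0.052, limma adjusted p = 0.0478), but the methods' t-test gave an adjusted p of 0.154, and it did not pass when all transcript rows were tested (adjusted p = 0.0798) or after quantile normalization (-0.23, adjusted p = 0.0572). It passed without ZT20 replicate 1 and failed without any other single array (adjusted p up to 0.122). With each single array left out included, Ktn1 passed in 7 of 20 alternatives. Among these were centring (limma adjusted p = 0.0416), rows above the median row (0.0317) and array weights (0.027).

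Among accessory factors of ER entry, a list of 20 genes of which 19 were measured, 2 genes were higher and 4 lower at an unadjusted p under 0.05, with a median of -0.06 (0.01 after quantile normalization). Dnajc1, a J-domain protein that links ribosomes and BiP, had signals of 8.90, 8.91, 8.85, 8.90 and 8.88 at ZT8 and of 8.69, 8.62, 8.70, 8.71 and 8.73 at ZT20. These groups stood apart with little spread inside each. The difference was -0.20 (SE 0.042, limma adjusted p = 0.0545, exact permutation p = 0.00794), just short of the threshold. Counting each single array left out, Dnajc1 passed in 4 of 20 alternatives. These were centring (limma adjusted p = 0.0364), rows above the median row (0.032), a robust prior (0.0402) and array weights (0.0333). It did not pass in the other 16, with an adjusted p up to 0.126. Among these were quantile normalization (0.0863), the methods' t-test (0.12) and every single array left out. Named after their values were seen, the others were Naca, which shields nascent chains from SRP, at -0.16 (adjusted p = 0.0783), and Ccdc47, part of a chaperone for multipass membrane proteins, at -0.12 (adjusted p = 0.264). On the higher side stood Nomo1 and Ncln, which encode partners in one complex at the translocon, at 0.10 and 0.09 (adjusted p = 0.248 and 0.266). Hspa5, which encodes BiP, the chaperone that receives entering chains, had a difference of -0.05 (adjusted p = 0.591).

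In the remaining lists no gene passed the threshold with values as deposited. The ER membrane protein complex, which inserts membrane proteins, had 2 of 10 genes lower at an unadjusted p under 0.05. These were the subunit genes Emc2 with a difference of -0.18 (adjusted p = 0.114, -0.12 after quantile normalization) and Mmgt1, on a row that also names Mir5116, with -0.19 (adjusted p = 0.258). For Emc2 every ZT20 array lay below every ZT8 array (exact permutation p = 0.00794). Emc10, named after its values were seen, went the other way, with every ZT20 array above every ZT8 array (0.13, limma adjusted p = 0.273, exact permutation p = 0.00794). Ktn1, Dnajc1, Naca, Canx and Tmed5 also had groups that did not overlap, each lower at ZT20. Groups did not overlap in 5.92% of all tested rows and in 11.6% of the 6562 brightest rows. In the pathway for tail-anchored proteins, 6 of 9 listed names were measured and none lay at an unadjusted p under 0.05, with the membrane receptor gene Get1 and the chaperone gene Bag6 both at 0.04, which turned to -0.0060 and -0.01 after centring. For synthesis of the dolichol-linked oligosaccharide, the sugar donor of N-glycosylation, this was so for all 22 genes measured of 23, and their median difference was -0.0045. The lowest p there belonged to a row that names Dpm1 together with Adnp and Gm20716 (-0.10, adjusted p = 0.283), so that its value cannot be given to Dpm1 alone. Nus1, for dolichol synthesis, followed at -0.07 (adjusted p = 0.464), and was at -0.04 without ZT8 replicate 1 and -0.02 after quantile normalization. Of 15 genes of glycan trimming and lectin chaperones 2 were lower at an unadjusted p under 0.05, the disulfide isomerase gene Pdia3 with -0.13 and the lectin gene Canx with -0.09 (adjusted p = 0.168 and 0.257), which became -0.03 and 0.02 after quantile normalization, and 10 of 15 had a higher mean at ZT20. Other p24 and COPII coat genes, 23 measured of 24, held at this threshold the p24 gene Tmed5 with -0.24 (adjusted p = 0.0726) and the coat gene Sec23a with -0.12 (adjusted p = 0.226). Counting each single array left out, Tmed5 passed in 2 of 20 alternatives. These were rows above the median row (limma adjusted p = 0.0479) and array weights (0.0354). It did not pass in the other 18, with an adjusted p up to 0.194.

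**Figure D5:**
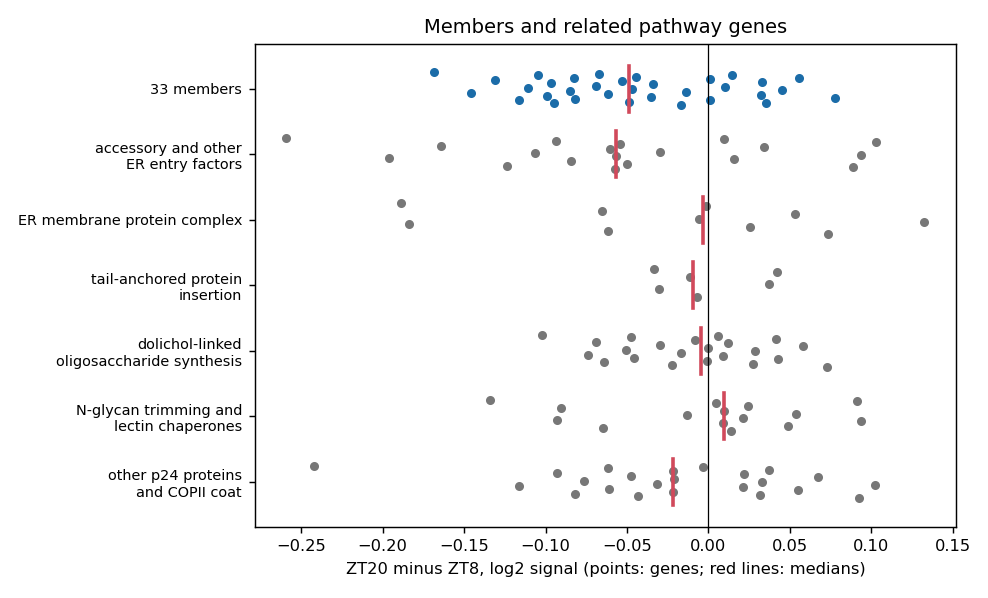
Difference of ZT20 minus ZT8 in log2 signal (x axis) for the 33 members and for each related list (y axis), with a point per gene and a red line at the median. Medians lie between -0.06 and 0.01, and the lowest point is Ktn1 at -0.26.

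Copies of members elsewhere in the genome were read as well, because several rows share names with them. Gm14989, a pseudogene of Sec61g by the annotation in the study's supplement, had signals of 8.73, 8.85, 8.77, 8.71 and 8.44 at ZT8 and of 8.45, 7.99, 8.16, 7.63 and 8.05 at ZT20. Apart from ZT8 replicate 5 and ZT20 replicate 1, which lay side by side, the groups were separate. Gm14989 fell at ZT20, with a difference of -0.65 (SE 0.13, limma adjusted p = 0.045), while the Sec61g row differed by 0.0013. The study had chosen this pseudogene on these same arrays, so that its difference is not independent evidence, and of the 10 single arrays left out in turn it passed only without ZT20 replicate 1 (adjusted p up to 0.122). The adjusted p was 0.172 by the methods' t-test and 0.0733 after quantile normalization. With each single array left out included, Gm14989 passed in 7 of 20 alternatives. The other copies measured on rows of their own were Gm11575 and Gm10177, which share the Sec61g row, at -0.11 and -0.10, Gm10698, which shares the Tmed2 row, at -0.08, Tmed10-ps at -0.05 and Spcs2-ps at -0.05, with adjusted p from 0.364 to 0.641.

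Promoters of the members were searched for motifs of the clock and of the ER stress response, as a description of where such letters stand beside the values above. RefSeq sequences on GRCm38.p6 from 250 bases before to 50 after the start were at hand for 24 of 33 genes, and both strands were searched. The E-box CACGTG, bound by the clock activators CLOCK and BMAL1 but also by other factors, stood in 3 of 24 genes (12.5%). It stood in 7.15% of all 32851 promoters and in 7.84% of the 21262 promoters of protein-coding genes. The D-box (TTATGTAA or TTACGTAA), bound by DBP, TEF and HLF, stood in 1 of 24 (4.17%), against 1.06% of all and 1.03% of protein-coding promoters. The ER stress element, the XBP1 and ATF6 element TGACGTGG and the ATF4 element TGATGCAA stood in 0 of 24, against 0.119%, 0.676% and 0.895% of all promoters. The stretches around the matches are shown 5′ to 3′ on the strand of the gene, all upstream of the start, with the motif in capitals, because they belong to Sec62 and Tmed10, described above, to Ssr1 and to the channel subunit gene Sec61b.
Sec62 (chr3:30792806-30792875, + strand): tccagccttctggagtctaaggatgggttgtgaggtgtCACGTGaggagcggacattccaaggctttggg
Ssr1 (chr13:37994243-37994312, - strand): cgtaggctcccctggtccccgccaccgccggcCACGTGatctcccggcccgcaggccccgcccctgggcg
Tmed10 (chr12:85374718-85374787, - strand): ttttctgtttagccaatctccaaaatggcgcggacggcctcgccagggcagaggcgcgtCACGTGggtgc
Sec61b (chr4:47474493-47474562, + strand): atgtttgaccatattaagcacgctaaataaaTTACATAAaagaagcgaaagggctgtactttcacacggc
Counted from the start, the E-box begins at -32 in Sec62, at -72 in Ssr1 and at -11 in Tmed10. The D-box of Sec61b, printed as its reverse complement, begins at -137. The genes with an E-box had differences of -0.15, -0.08 and -0.07, and Sec61b, with the D-box, one of -0.02. A match is a run of letters and was not tested for binding.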

How the data were processed

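RNA of 10 islet samples was measured on 1 array each, 5 at ZT8 and 5 at ZT20, grouped by the time point label. The log2 signals per transcript cluster were normalized by the authors before they were deposited, by GCRMA according to the heading of a supplementary table of the paper, and Affymetrix Expression Console is named in the submitters' notes on processing. The paper's methods name another type of array than the one whose transcript clusters were deposited, so that whether the GCRMA heading describes these values is not settled. The setting was not given in the sources used here. Precision is limited by the number of arrays. Of 72688 rows, 6732 are controls and 32814 of 65956 transcript rows name at least 1 gene, 30924 exactly 1. A member was read from the row naming it alone (29 genes), otherwise from the brighter row naming it with others (4 genes), through the array's annotation. Differences were fitted with limma 3.58.1 (lmFit and eBayes, two-sided) in R 4.3.3 on the values as deposited, with no filter, and adjusted by the Benjamini-Hochberg method over 32814 rows. Single genes were also compared by exact permutation of 10 arrays with scipy 1.17.1 (252 splits). The members and lists were chosen with earlier results of these data known, so no list was tested or adjusted alone. Members were described in full at an unadjusted p under 0.05, where groups did not overlap, or with the largest difference of their role, with Sec61a1, Ssr1 and Ddost added after their values were seen, and each related list named up to 2 genes with the lowest p, except where stated. Alternatives were centring, quantile normalization, other row sets, array weights, a robust prior with trend, a block on the replicate number, the methods' t-test, the mean of a gene's rows and each array left out. The fit was tested on simulated data. Genes without a row in the tables used were not analysed here. Figures were drawn with matplotlib 3.10.9.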

Additional observations from a re-analysis of the deposited data

Results flagged for a closer look

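In 6 of 66 groups of 5 arrays, 1 array lay far from the rest of its group, where chance flags about 1 in 20 groups. ZT20 replicate 3 was the high array for Ddost (11.86, next 11.70), Ssr2 (12.54, next 12.43) and Srprb (8.92, next 8.71). ZT8 replicate 1 was the low array for Tmed10 (11.62, next 11.74). ZT20 replicate 2 was the low array for Sec63 (10.14, next 10.28). ZT8 replicate 5 was the high array for Sec61a2 (7.49, next 7.24).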

How the results depend on the processing

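No member passed the threshold under any of the 10 alternatives or without any 1 array (0 called throughout). Centring each array on its median gave 9 members at an unadjusted p under 0.05, 2 with a higher mean at ZT20 and 3 related genes called. The shares of all tested rows at that p, or called, were not counted after centring, after quantile normalization or by the methods' t-test. Quantile normalization gave 24 members with a higher mean at ZT20, a median difference of 0.031 and 0 related genes called, and array weights gave 6 members with a higher mean at ZT20. Quantile normalization turned Tmed10 to 0.031 and Canx to 0.021, and centring turned Get1 to -0.0060 and Bag6 to -0.011. The cause was not tested. Without 1 array the members at an unadjusted p under 0.05 ranged from 2 to 6, those with a higher mean at ZT20 from 5 to 12 and the median difference from -0.07 to -0.04. With the replicate number as a block 0 members were called and 3 lay at an unadjusted p under 0.05. The numbers were not taken as pairs, because the correlations of same-numbered arrays ran from -0.13 to 0.352 and only 3 of 5 exceeded 0.1, although 6 of 10 arrays correlated best with their own number. Under the block Ktn1 and Gm14989 no longer passed (adjusted p = 0.0638 and 0.0595).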
